A study of Mus musculus with 9 samples.

Results

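The genes described here are 34 cell cycle genes, namely cyclins, cyclin-dependent kinases (CDKs), CDK inhibitors, replication factors and mitotic proteins. They were chosen by name, and a gene was taken as found when its symbol was listed in the files of inbred wild type lenses. Of the 34 genes, 32 were found among the 7676 genes listed once each in those files. Ccne2, an E-type cyclin, and Cdc6, which loads the replicative helicase, were not listed, under these names or as synonyms. The lowest mean in the list was 2 RPKM (reads per length of exon, scaled to the number of mapped reads), so either gene lay below that level or was left out by another rule.

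The study sequenced RNA of mouse lenses at 15.5 days post conception, in 3 libraries of each of 3 groups and with 30 lenses pooled per library. The conditional knockout (cKO) lenses were Sip1 flox/flox with the MLR10Cre transgene, in which a lens promoter drives Cre recombinase, on a mixed strain background. The mixed wild type lenses were Sip1 flox/flox without Cre on that background. The inbred wild type lenses came from the inbred strain C57Bl/6<har>, and their labels give no genotype. None of the 34 genes was among the 190 genes of the cKO and mixed wild type files used here, and neither was any of 127 further cell cycle genes. What follows therefore describes 1 group, the inbred wild type lens, and holds no test between groups.

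A cell enters the cycle when D-type cyclins with their kinases release E2F transcription factors from the retinoblastoma protein. E2F then turns on genes of DNA replication, and a later wave of transcription provides the cyclins, kinases and motor proteins of mitosis. CDK inhibitors of the Cip/Kip family bind cyclin-CDK complexes and hold cells out of the cycle. In the embryonic lens the epithelial cells divide, while cells that begin to elongate into fibres leave the cycle for good, and Cdkn1b and Cdkn1c are known for their part in that exit in mouse lens.

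The promoters of the genes carried the letters of known cell cycle elements, and 6 of them are shown here because each holds several matches. The sequences are RefSeq's for GRCm38.p6 and reach from 250 bases before to 50 bases after the start of the gene. The gene expression files name no genome build, so these positions belong to the RefSeq table alone. Ccnb2 lies at chr9:70421505-70421804 and Cdk1 at chr10:69352863-69353162. Top2a lies at chr11:99024140-99024439, and these 3 windows are on the minus strand. Capitals mark the cell cycle genes homology region (CHR), TTTGAA, and the CCAAT box, each on either strand.
Ccnb2: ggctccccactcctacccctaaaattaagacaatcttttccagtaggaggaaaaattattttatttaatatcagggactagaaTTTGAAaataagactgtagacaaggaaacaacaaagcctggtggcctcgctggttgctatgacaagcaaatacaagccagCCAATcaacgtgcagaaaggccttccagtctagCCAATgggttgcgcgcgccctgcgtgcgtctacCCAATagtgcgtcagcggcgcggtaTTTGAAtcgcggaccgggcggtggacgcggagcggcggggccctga
Cdk1: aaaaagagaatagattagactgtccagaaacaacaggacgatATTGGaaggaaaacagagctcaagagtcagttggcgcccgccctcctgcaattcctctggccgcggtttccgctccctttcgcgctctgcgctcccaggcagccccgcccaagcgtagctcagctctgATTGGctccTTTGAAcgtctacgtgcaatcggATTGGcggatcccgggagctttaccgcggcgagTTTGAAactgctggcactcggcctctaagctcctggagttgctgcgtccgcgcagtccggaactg
Top2a: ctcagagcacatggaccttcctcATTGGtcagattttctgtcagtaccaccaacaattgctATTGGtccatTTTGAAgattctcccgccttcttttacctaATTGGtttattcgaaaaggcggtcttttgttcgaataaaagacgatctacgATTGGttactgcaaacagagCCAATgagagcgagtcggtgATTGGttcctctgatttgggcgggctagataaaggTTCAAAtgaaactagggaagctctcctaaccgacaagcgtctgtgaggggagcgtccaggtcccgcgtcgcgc

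Of the replication genes, Mcm5 lies at chr8:75109259-75109558 on the plus strand and Mcm6 at chr1:128359656-128359955 on the minus strand. Capitals mark the E2F letters, TTTNNCGC, on either strand.
Mcm5: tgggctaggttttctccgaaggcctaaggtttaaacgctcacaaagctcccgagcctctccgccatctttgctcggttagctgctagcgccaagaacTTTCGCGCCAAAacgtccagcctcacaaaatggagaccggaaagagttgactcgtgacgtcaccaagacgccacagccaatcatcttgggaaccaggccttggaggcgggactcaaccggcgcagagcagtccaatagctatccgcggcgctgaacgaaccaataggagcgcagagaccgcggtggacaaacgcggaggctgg
Mcm6: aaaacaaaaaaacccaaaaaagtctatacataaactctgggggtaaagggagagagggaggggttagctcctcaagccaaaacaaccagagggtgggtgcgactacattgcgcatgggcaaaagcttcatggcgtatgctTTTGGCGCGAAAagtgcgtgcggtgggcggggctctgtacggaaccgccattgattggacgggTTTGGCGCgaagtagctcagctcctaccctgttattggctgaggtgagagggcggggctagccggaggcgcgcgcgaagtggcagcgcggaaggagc

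Cdkn1b, the CDK inhibitor with an entry, lies at chr6:134920151-134920450 on the plus strand. Capitals mark its CCAAT boxes.
Cdkn1b: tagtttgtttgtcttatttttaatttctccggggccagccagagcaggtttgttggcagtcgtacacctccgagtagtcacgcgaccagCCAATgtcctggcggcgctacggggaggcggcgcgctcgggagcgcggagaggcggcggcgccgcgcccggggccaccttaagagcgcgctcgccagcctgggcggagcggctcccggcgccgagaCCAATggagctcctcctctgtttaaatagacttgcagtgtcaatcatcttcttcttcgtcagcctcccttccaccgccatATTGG

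The 3 CCAAT boxes of the Ccnb2 window began 87, 54 and 21 bases before the start of the gene and so stood 33 bases apart, and a CHR began 4 bases after the start. In the Cdk1 window a CHR began 15 bases before the start, and CCAAT boxes in reverse orientation began 48 and 80 bases before it. The Top2a window held 6 CCAAT boxes and 2 CHR matches. In the Mcm5 window the matches TTTCGCGC and GCGCCAAA overlapped on opposite strands, and the Mcm6 window held a like pair, TTTGGCGC with GCGCGAAA, and a further TTTGGCGC nearer the start. The Cdkn1b window held 3 CCAAT boxes and no CHR or E2F match.

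Entries were found for 25 of the 32 genes, and those for Ccnd1, Ccnd2, Ccna2, Cdkn1c, Mcm4, Foxm1 and Aurkb were not. The CHR letters stood in windows of 9 of 13 genes (69.2%) in a first set of cyclins B1 and B2, the CDKs and the genes of mitosis and chromatin. They stood in that of 1 of 9 replication, nucleotide and transcription factor genes, Mcm2. They were held by 13.5% of listed genes with an entry and by 20.2% of all genes with one. The E2F letters stood in 5 of the 9 replication, nucleotide and transcription factor genes (Mcm3, Mcm5, Mcm6, Mcm7 and Tyms). They stood in 2 of the 13 genes of the first set (Cdk1 and Cdk2). Of listed genes 10.7% held them, and of all genes 5.93%. CCAAT boxes were found for 21 of the 25 genes (84.0%), against 43.95% of listed genes and 41.1% of all genes, and the GC box GGGCGG for 23 of 25 (92.0%), against 73.0% of listed genes and 38.2% of all. Of 125 matches in the windows of the 25 genes, 1 pair of different motifs overlapped. These are matches of letters in a window and were not tested as binding sites.

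The deposited RPKM values fell on whole multiples of 1 step per library once multiplied by exon length, which gave depths of 16700000, 16300000 and 14100000 reads in replicates 1, 2 and 3. Between 128 and 19562 reads per library lay behind the 32 genes, and 7 genes had fewer than 200 reads in at least 1 library. The labelled tissue was checked against its markers. All 8 lens fibre markers and all 8 lens epithelial markers looked for were listed, with Cryaa at 89016 RPKM and Cryab at 2087 RPKM the highest. Of markers for other cells the libraries also held 4 of 10 erythroid genes, with summed levels of 542 to 573 RPKM and Hbb-b1 the highest at 272 RPKM. Most of that sum was Hbb-b1 and Hba-a1, whose ratios of the authors' normalized expression value, their second scale, to RPKM times exon length were 0.363 and 0.154 of the median gene's, so their levels are uncertain. The libraries held 6 of 10 endothelial genes, with sums of 20.1 to 24.4 RPKM and Egfl7 the highest at 5.62 RPKM, and 1 of 8 periocular mesenchyme genes, Pdgfra, at 22.5 RPKM. For Egfl7 the same ratio was 0.357 of the median gene's, so its level is uncertain too. Alas2 of the red cell lineage and Pecam1 and Flt1 of endothelium were not listed. None of 10 leukocyte genes and none of 8 retinal genes was listed. The share of cell cycle RNA that came from red cell precursors or vessel cells was not tested. In pooled whole lenses, fewer cycling cells and less of an RNA per cell cannot be told apart.

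**Figure D1:**
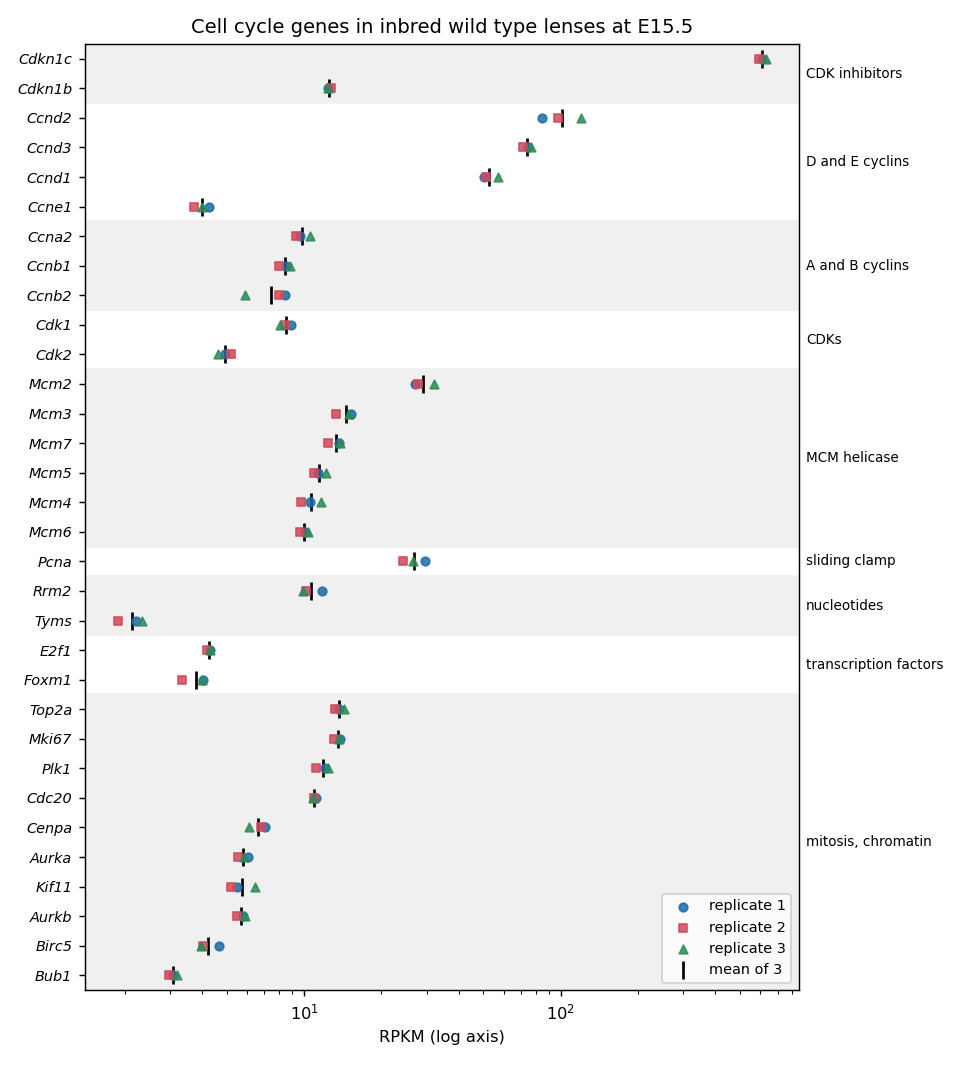
RPKM (log axis) of the 32 listed cell cycle genes in the 3 inbred wild type libraries, with the mean as a bar, grouped by role. Cdkn1c stands apart near 610 RPKM, the 3 D-type cyclins lie between 50.02 and 120 RPKM, and 26 of the other 28 genes lie below 15 RPKM.

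The CDK inhibitor Cdkn1c was the most abundant of the 32 genes by a wide margin. It had 607, 591 and 633 RPKM in replicates 1, 2 and 3 (mean 610 ± 21.1, SD, n = 3), and per-library values below are given in that order. This placed it 54th of 7676 genes, within the top 0.704%, and it alone held 54.9% ± 0.59 (SD, n = 3) of the RPKM summed over the 32 genes. The next gene, Ccnd2, was 6.05-fold lower, and in each library Cdkn1c exceeded the sum of the other 31 genes, 1.22-fold ± 0.03 on average.

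Cdkn1b, the related inhibitor, was far less abundant, at 12.3, 12.7 and 12.4 RPKM (mean 12.5 ± 0.21, SD, n = 3), and ranked 2574th. The ratio of Cdkn1c to Cdkn1b was 49.2, 46.4 and 50.9, a wide gap in every library. Cdkn1b was also among the steadiest genes, with a coefficient of variation (CV, the SD as a percentage of the mean) of 1.67%. The GENCODE M21 gene Gm44732 overlaps 30.7% of the exon bases of Cdkn1c on the opposite strand. The library kit does not keep the strand, so reads from that stretch could belong to either gene.

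Of the other CDK inhibitor genes, Cdkn2d and Cdkn2c were listed, while Cdkn1a, Cdkn2a, Cdkn2b and Cdkn3 were not. Cdkn2d, an inhibitor of the D-type cyclin kinases, was at 8.72, 9.75 and 10.01 RPKM. For the normalized expression value, the central 95% of listed genes had a ratio of this value to RPKM times exon length between 0.199 and 1.21 of the median gene's. For Cdkn2d that ratio was only 0.0952 of the median gene's, so its level is uncertain. Cdkn2c, of the same INK4 family, was at 2.65, 1.87 and 2.16 RPKM, near the lower end of the list.

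All 3 D-type cyclins, which drive entry into the cycle, followed Cdkn1c in the order. Ccnd2 had 84.8, 97.3 and 120 RPKM (mean 101 ± 18.1, SD, n = 3) and ranked 303rd. Ccnd3 had 74.5, 71.4 and 76.6 RPKM and ranked 413th. Ccnd1 had 50.02, 51.0 and 56.9 RPKM and ranked 627th. The libraries of these 3 cyclins did not overlap, and on the deposited RPKM scale the order Ccnd2, Ccnd3, Ccnd1 stood in each library. The ratio of Ccnd2 to Ccnd3 was 1.14, 1.36 and 1.57. Per length of the principal transcript (the form GENCODE M21 marks as the main one) it was 0.960, 1.15 and 1.33, so the order turned in replicate 1. On the normalized value per kilobase, where the mean of Ccnd3 was 46.5 instead of 74.2, it was 1.42, 1.75 and 1.89. Levels on both of these scales were brought to the RPKM scale, divided by their median ratio to RPKM over listed genes. Together the 3 D-type cyclins reached 228 ± 23.4 RPKM (SD, n = 3) on the deposited scale, and Cdkn1c was 2.69-fold ± 0.21 higher than that sum. Exons of LTO1 on the opposite strand overlap 23.4% of the exon bases of Ccnd1.

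Ccne1, the E-type cyclin that acts with Cdk2 at the start of DNA synthesis, was low, at 4.26, 3.71 and 4.01 RPKM (mean 3.99 ± 0.27, SD, n = 3). Its rank of 5839 lay in the lowest 25% of the list.

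The cyclins of later phases lay between these extremes. Ccna2, the A-type cyclin of DNA synthesis and early mitosis, had 9.60, 9.30 and 10.5 RPKM. Ccnb1 had 8.50, 7.97 and 8.80 RPKM and Ccnb2 had 8.44, 7.96 and 5.87 RPKM, both being partners of Cdk1 at the entry to mitosis. On this scale the ratio of Ccnb1 to Ccnb2 was 1.007, 1.001 and 1.499. It was 0.478, 0.468 and 0.651 on the normalized value per kilobase and 1.70, 1.69 and 2.52 per length of the principal transcript, so which B-type cyclin was higher depended on the scale. Ccnb1 shares 46.9% of the 31-base words (runs of 31 bases) of its longest transcript with other genes, foremost the pseudogene Ccnb1-ps. Its ratio of normalized value to RPKM times length was 0.517 of the median gene's, the lowest of the 32 genes. Its mean of 8.42 RPKM became 4.36 on the normalized value per kilobase and 12.7 per length of the principal transcript.

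The kinases themselves were less abundant than the D-type cyclins. Cdk1, the mitotic kinase, had 8.89, 8.46 and 8.09 RPKM (mean 8.48 ± 0.40, SD, n = 3), and Cdk2 had 4.93, 5.17 and 4.62 RPKM (mean 4.91 ± 0.27). Cdk1 exceeded Cdk2 in every library, by 1.73-fold ± 0.09, and per length of the principal transcript Cdk1 averaged 5.93 RPKM and Cdk2 4.73 RPKM. Cdk4, the partner of D-type cyclins and one of 23 further genes of G1 control, was at 44.0, 40.05 and 41.4 RPKM, which is 8.55-fold ± 0.69 above Cdk2. Of those 23 genes 17 were listed. The highest after Cdk4 were Mycn, a proto-oncogene transcription factor, at 32.2 RPKM, Cks1b, a CDK-binding subunit, at 25.2 RPKM, and Tfdp1, the dimer partner of E2F, at 23.6 RPKM. Cdk6, Rbl2, E2f2, E2f7, E2f8 and Tfdp2 were not listed.

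Both transcription factors among the 32 genes, E2f1 and Foxm1, lay below their median. E2f1, the activator of replication genes, had 4.31, 4.2 and 4.30 RPKM (mean 4.27 ± 0.06, SD, n = 3) and the smallest CV of the 32 genes, 1.45%. Foxm1, which acts on the mitotic genes, had 4.04, 3.34 and 4 RPKM (mean 3.79 ± 0.40). E2f1 and Foxm1 overlapped in none of their libraries, and Birc5 and Ccne1 lay between them.

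All 6 subunits of the MCM helicase, which opens DNA at replication forks as a ring with 1 copy of each, were listed. Mcm2 was the highest, at 27.2, 27.7 and 32.2 RPKM (mean 29.0 ± 2.78, SD, n = 3). On the deposited scale the other 5 lay within a 1.45-fold range, with means of 14.5 for Mcm3, 13.3 for Mcm7, 11.5 for Mcm5, 10.6 for Mcm4 and 10.03 RPKM for Mcm6. Mcm2 was 2.003-fold ± 0.20 above Mcm3, and its libraries overlapped with none of the other subunits. Mcm7 shares 37.6% of its 31-base words with other genes, foremost Gm5487, and Mcm4 shares 5.34%. Per length of the principal transcript Mcm7 averaged 17.6 RPKM, against 25.8 RPKM for Mcm2. On that scale Mcm6, at 13.4 RPKM, lay above Mcm3 at 12.7 RPKM, and Mcm4 was the lowest subunit at 9.42 RPKM.

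Pcna, the sliding clamp of the replication fork, was at 29.7, 24.3 and 26.6 RPKM (mean 26.9 ± 2.70, SD, n = 3), which overlapped with Mcm2. The ratio of Mcm2 to Pcna was 0.914, 1.14 and 1.21. It was 0.578, 0.719 and 0.766 per length of the principal transcript and 1.53, 1.89 and 1.81 on the normalized value per kilobase, so their order depended on the scale. It shares 38.0% of its words with other genes, foremost Pcna-ps2, and its ratio of normalized value to RPKM times length was 0.586 of the median gene's. Rrm2, the regulated subunit of ribonucleotide reductase, had 11.7, 10.2 and 9.93 RPKM. Tyms, which makes thymidylate, had 2.20, 1.87 and 2.33 RPKM and was the lowest of the 32 genes, at rank 7536. Tyms lay just inside the lower end of the list, and the exon length the authors gave it, 6089 bases, is 1.93-fold that of its principal transcript. Per length of that transcript, brought to the RPKM scale, it was at 3.65 RPKM. Bub1, at 3.48 RPKM, was then the lowest of the 32.

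Of 43 further replication genes 31 were listed, with a median of 5.26 RPKM. The highest were Rfc2, a subunit of the clamp loader, at 23.1 RPKM, Pold2, a subunit of DNA polymerase delta, at 19.3 RPKM, Gins4, a helicase cofactor, at 15.2 RPKM, and Uhrf1, which maintains DNA methylation, at 13.5 RPKM. The 12 that were not listed included Cdt1 and Orc1, which load the helicase as Cdc6 does, and Tk1.

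All 10 genes of mitosis and chromatin were listed, and they spanned 3.08 to 13.7 RPKM. Top2a, the topoisomerase that untangles chromosomes, had 13.6, 13.2 and 14.3 RPKM (mean 13.7 ± 0.54, SD, n = 3), and Mki67, the proliferation marker that coats mitotic chromosomes, had 13.8, 13.1 and 13.7 RPKM (mean 13.5 ± 0.37). The ratio of Mki67 to Top2a was 0.983 ± 0.028, so on the authors' scale they could not be ranked against each other, while per length of the principal transcript Top2a reached 21.2 RPKM and Mki67 12.0 RPKM. Plk1, a kinase of mitotic entry, followed at 12.1, 11.2 and 12.4 RPKM, and Cdc20, the activator of the anaphase-promoting complex, at 11.1, 10.9 and 10.8 RPKM.

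The remaining 6 genes were lower on the deposited scale. Cenpa, the histone of centromeres, had 7.01, 6.79 and 6.07 RPKM. Per length of the principal transcript its mean was 10.04 instead of 6.63 RPKM, near Cdc20 at 10.1 and Plk1 at 10.6 RPKM. Aurka and Aurkb, the Aurora kinases of spindle poles and of the chromosomal passenger complex, had means of 5.79 and 5.69 RPKM. The ratio of Aurka to Aurkb was 1.05, 1.013 and 0.992. Per length of the principal transcript it was 0.92, 0.89 and 0.87, so Aurkb was then higher in each library. Kif11, a spindle motor, had 5.47, 5.21 and 6.46 RPKM. Birc5 (survivin), of the same complex as Aurkb, had 4.67, 4.04 and 3.96 RPKM, and Bub1, a spindle checkpoint kinase, 3.07, 2.97 and 3.20 RPKM. The exon length given for Birc5, 3414 bases, was 3.60-fold that of its principal transcript. Per length of that transcript, brought to the RPKM scale, its level was 13.5 instead of 4.22 RPKM. This moved it from place 28 to place 9 among the 32 genes. Cdc20, Plk1 and Kif11 share 27.4%, 15.2% and 8.67% of their words with other genes. Of the genes described above, Rrm2, Tyms and Ccnd3 share 15.4%, 15.1% and 5.77%.

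Of 55 further mitotic genes 47 were listed, with a median of 3.98 RPKM. The highest were Hmgb2, a chromatin protein, at 30.3 RPKM, Ube2s, a ubiquitin-conjugating enzyme of the anaphase-promoting complex, at 25.2 RPKM, Ckap5, a microtubule polymerase, at 24.4 RPKM, and Ncapd2, a condensin subunit, at 13.9 RPKM. The ratios of normalized value to RPKM times length of Hmgb2 and Ube2s were 0.358 and 0.359 of the median gene's, so their levels are uncertain.

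**Figure D2:**
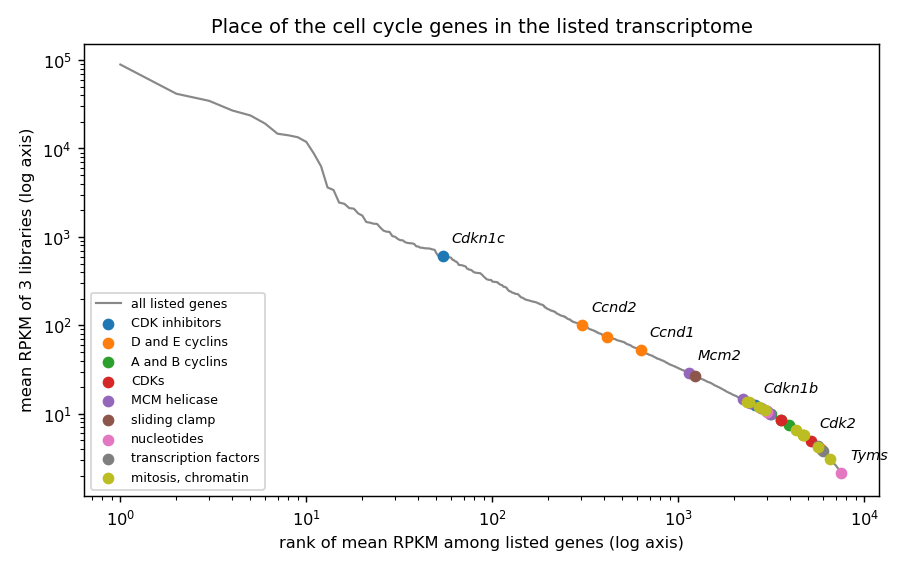
Mean RPKM of all 7676 listed genes against their rank (grey line, both axes logarithmic), with the 32 cell cycle genes as points coloured by role. Cdkn1c at rank 54 and the D-type cyclins at ranks 303 to 627 lie in the steep upper part, and the remaining genes lie between ranks 1137 and 7536.

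The 32 genes had a median of 10.3 RPKM, against 7.65 RPKM over all listed genes, and their median percentile in the list was 60.2. With the list divided by rank into 4 equal parts, 6 of the 32 genes lay in the highest (Cdkn1c, Ccnd2, Ccnd3, Ccnd1, Mcm2 and Pcna), 14 in the next, 8 in the one below and 4 in the lowest (Ccne1, Foxm1, Bub1 and Tyms). In the order of means of the deposited RPKM, 11 of 31 neighbouring pairs did not overlap in their libraries and 20 did. The separations stood at the top, where each of Cdkn1c, Ccnd2, Ccnd3 and Ccnd1 was apart from the gene after it, at the step from Pcna to Mcm3, and at 6 places further down, among them those around Cdk2, Bub1 and Tyms. From Mcm3 at 14.5 RPKM to Ccna2 at 9.81 RPKM, a stretch that holds Top2a, Mki67, Cdkn1b and 5 MCM subunits, every gene overlapped with its neighbours. With 3 libraries an exact sign-flip test of a pair cannot go below p = 0.25 two-sided, so none was made.

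**Figure D3:**
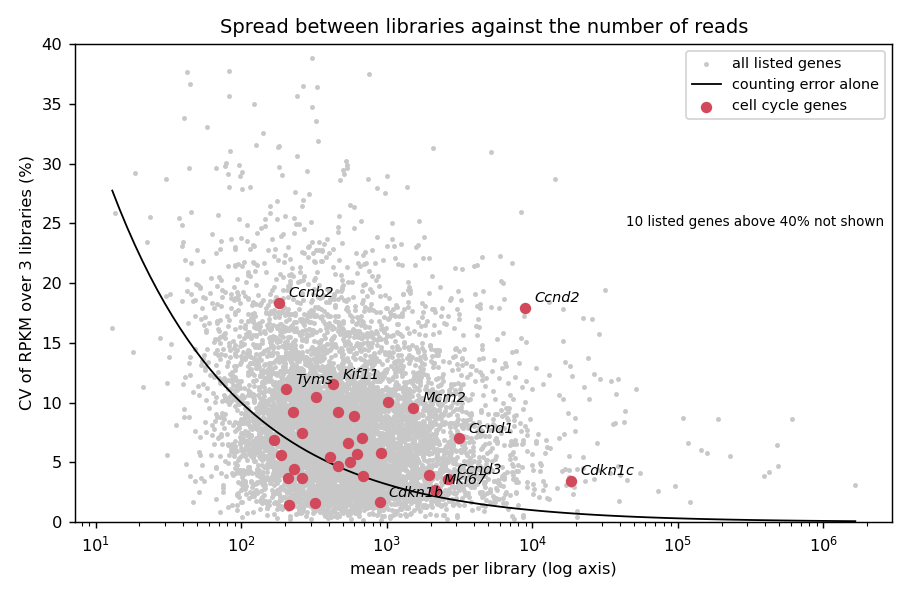
CV of RPKM over the 3 libraries against mean reads per library (log axis) for all listed genes (grey) and the 32 cell cycle genes (red). The line is the root mean square CV expected from counting alone, and 10 listed genes above 40% are not shown. Ccnd2 and Ccnb2 lie highest, near 18%, Ccnd2 far above the line and Ccnb2 closer to it.

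The spread between libraries was below 10% of the mean for 26 of the 32 genes. It was over 10% for the other 6 (18.75%), against 29.0% of all listed genes. The median CV was 5.76%, against 7.21% over all listed genes. The counting error of a gene, the root mean square CV expected from counting alone, had a median of 4.50% over the 32 genes. A typical CV of 3 libraries from counting alone would lie below that root mean square. The order of the median CVs of the 32 genes and of all listed genes depended on single libraries. Without replicate 1 the median CV was 6.62% for the 32 genes and 5.58% over all listed genes, without replicate 2 it was 3.78% and 7.29%, and without replicate 3 it was 3.55% and 5.24%. In 8 genes the CV exceeded the counting error more than 2-fold (25%, against 35.8% of all listed genes). These were Cdkn1c, Ccnd2, Ccnd1, Mcm2, Pcna, Mcm4, Ccnb2 and Kif11. Ccnd2 stood out among the 32, with a CV of 17.9% where its 8064 to 9709 reads per library allow 1.06%. Ccnb2 had the largest CV, 18.4%, on 217, 200 and 128 reads, where its counting error was 7.62%. At the other end Cdkn1b, E2f1, Cdc20 and 5 further genes varied by less than their counting error. With 3 libraries a typical gene would do so from counting alone, and the share of all listed genes that did was not counted.

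**Figure D4:**
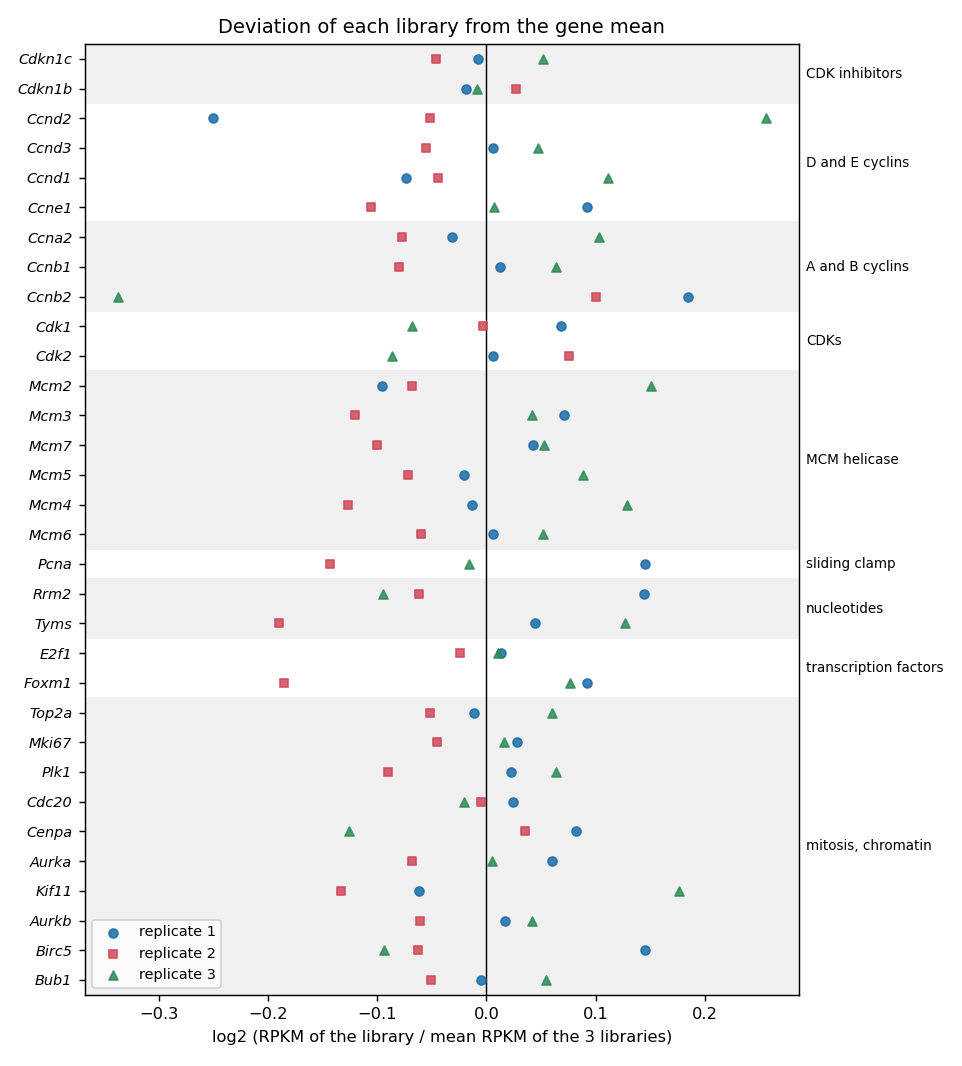
Deviation of each library from the gene's mean over the 3 libraries (log2 scale) for the 32 genes, grouped by role. Replicate 2 (squares) is the lowest library for 21 genes, while Ccnd2 and Ccnb2 show the widest spread, with replicate 3 highest for Ccnd2 and lowest for Ccnb2.

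Small deviations were shared by many of the genes. Replicate 2 was the lowest library for 21 of the 32 genes (65.6%), against 31.8% of all listed genes. Under 3 other scalings it was the lowest for 16 to 19 of the 32, against 21.9% to 25.8% of all listed genes. The median log2 deviation of the 32 genes in replicate 2 was -0.06, against -0.02 over all listed genes. For 5 of the 6 MCM subunits, for Pcna, Tyms, E2f1 and Foxm1, and for 7 of the 10 genes of mitosis and chromatin, replicate 2 was the lowest. Ccnd2, Ccnd1, Mcm2 and Cdkn1b were lowest in replicate 1, and Cdc20, Rrm2, Cdk1, Ccnb2, Cenpa, Cdk2 and Birc5 in replicate 3. Among the 97 listed genes of the further lists, 40 (41.2%) were lowest in replicate 2, 23 of 47 mitotic genes but 8 of 31 replication genes. Of the lens epithelial markers 1 of 8, Foxe3, was lowest in replicate 2, at 136, 115 and 158 RPKM, and of the fibre markers 0 of 8. Summed epithelial markers were at 2831, 3025 and 2571 RPKM, most of it Cryab, and at 699, 714 and 753 RPKM without Cryab. The part of the makeup of the lens pools in these deviations was not tested.

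Some pairs of genes moved apart between libraries. Ccnd2 was 1.42-fold higher in replicate 3 than in replicate 1, at 120 and 84.8 RPKM, while Ccnd3 differed by at most 1.07-fold between any libraries. Replicate 1 was the lowest library for 44.6% of all listed genes and replicate 3 the highest for 52.4%. The order of Ccnd2 was also that of 5 of 6 endothelial genes, the mesenchyme gene Pdgfra and the erythroid gene Hba-a1. It was that of the fibre genes Prox1, Gja3 and Mip and the epithelial genes Fgfr3, Cdh1 and Npnt. The fibre genes Bfsp2 and Lim2, the epithelial gene Pax6 and the erythroid genes Hbb-y and Hba-x had the reverse order. The other markers had neither order, and the share of all listed genes with the order of Ccnd2 was not counted. The part of other cell types in the level of Ccnd2 was not tested. Cdk1, Rrm2, Birc5, Cenpa, Cdc20 and Ccnb2 had replicate 1 highest and replicate 3 lowest. Of these genes only Ccnb2 had a CV more than 2-fold its counting error, and Cdc20 varied by less than its counting error. The share of all listed genes with this order was not counted. Whether these genes moved together was therefore not tested.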

How the data were processed

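RNA was measured by sequencing in 9 libraries of pooled mouse lenses. The authors' deposited values are, per the file headers, RPKM and a normalized expression score of unstated unit for every gene in every library, with exon length in the inbred files. Per the submitters' processing notes CASAVA 1.8.2 was used, and per the labels' protocols the TruSeq RNA kit served for library preparation. For aligner and genome build, nothing is stated in the labels or headers. Of 7700 rows, 24 with a repeated symbol were left out.

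Depth and reads per gene were recovered from the steps of RPKM times exon length (at least 99.9% of genes whole within 0.1 reads, where rounding allows it), a procedure tested on simulated data. Intervals of counting error cover counting only. Replicates differed by more than counting noise (chi-square per degree of freedom 6.97 to 16.7 over all listed genes). The labels call them independent biological replicates. Means, SDs, CVs and ranks of RPKM were computed with Python 3.11.15, numpy 2.4.6 and pandas 2.3.3. All 34 genes are named, and of each further list the 4 highest. The limma comparison planned for genes in the cKO and mixed wild type files was not made, since no gene of these lists is in those files. Shared 31-base words, overlaps and transcript lengths come from GENCODE M21 (GRCm38). The words are those of each gene's longest transcript. The members and lists were chosen with earlier results of these data known.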

Additional observations from a re-analysis of the deposited data

How the results depend on the processing

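Rescaling to listed genes other than crystallins and median centring left the median level, percentile and CV, the library deviations, the summed levels and all 32 gene levels within 1 SD of the values given. Both multiply whole libraries by factors that average near 1. Gene means were thus bound to change little, and they moved 0.999-fold to 1.005-fold. On the authors' normalized value per kilobase, brought to the RPKM scale, the median percentile was 63.0, the D-type cyclins summed to 162, the CDK inhibitors to 507 and the ratio of Cdkn1c to Cdkn1b was 39.99. That scale moved 18 of 32 gene levels by more than 1 SD, from 0.518-fold for Ccnb1 to 1.13-fold for Ccne1. Per length of the principal transcript, an alternative chosen after seeing the data and likewise brought to the RPKM scale, the median percentile was 57. The D-type cyclins then summed to 199, the CDK inhibitors to 561 and the mitotic genes to 100.4 RPKM. Single genes moved from 0.699-fold for Cdk1 to 3.20-fold for Birc5. Under both scales the means of Cdkn1c, Ccnd2, Ccnd3 and Ccnd1 led in that order. Ratios of named pairs on both scales were added after seeing the data. Among genes of at least 5 RPKM the median percentile was 45.1, since that minimum removes lower genes from the list. Without the genes sharing over 5% of their words, also chosen after seeing the data, the median level was 9.14 RPKM. The count of genes lowest in replicate 2 was 16 to 19 of 32 under the 3 other scalings, against 21.9% to 25.8% of all listed genes. Leaving out each library in turn gave a median percentile of 59.1 to 60.8 and a median CV of 3.55% to 6.62%. It moved gene levels from 0.903-fold for Ccnd2 to 1.104-fold for Ccnb2, both without replicate 3. With 3 libraries, leaving out 1 cannot move a gene's mean by 1 SD, so the SD is no measure of stability here. No paired analysis was possible because the genes have values in 1 group only, and for the same reason the limma alternatives for the knockout comparison were not run. Depth limits the lower genes, whose 128 to 200 reads give counting errors of up to 7.77%.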
